A study of Mus musculus with 12 samples.

Results

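The genes described here are 44 genes of mitosis and the spindle: the cyclins and kinases that drive cells through G2 and M phase, the transcription factors of those genes, and the proteins of kinetochores, spindle, condensin and cytokinesis. They were chosen by name, with earlier results of these data known. All 44 were found among the 20432 genes of the deposited table after Entrez numbers were matched to RefSeq symbols. All 44 also passed the filter on low values, so none is left out of a count. The RNA came from 6 mouse pancreatic ductal adenocarcinoma cell lines, numbered 52205, 52419, 52424, 53105, 53369 and 53371. Each line gave 1 library of the parental culture, labelled wild type, and 1 library of the same line labelled JAK1 knockout, made by infection with a retrovirus carrying Cre and a puromycin resistance gene and selection in puromycin raised from 2 to 4 and 7 µg/ml. The labels do not say whether a Cre culture is a clone or a pool, and effects of infection, drug selection and longer culture cannot be told apart from those of the deletion. The comparison asks which transcripts change when JAK1, a kinase that signals from cytokine receptors to STAT factors, is deleted in established tumour cells.

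Most of these genes are transcribed in a wave late in the cell cycle. In resting cells the DREAM complex, which contains the MuvB core and an RB-family protein, holds them off. In cycling cells the MuvB core joins B-MYB, encoded by Mybl2, and then FOXM1 to activate them, and after mitosis many of the proteins are destroyed through the anaphase-promoting complex. In bulk RNA a smaller share of dividing cells and less of these transcripts per cell cannot be told apart.

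The 12 libraries held 11.5 to 18.0 M reads in genes, where M stands for 1000000, and levels are given as normalised counts per M reads (CPM). Every member had at least 42 reads in every library. Line 53371 stood apart in the 44 genes. Over all 12734 tested genes it also had the largest share that differed by more than 1 on the log2 scale, 7.34%. That share was 6.26% in 52424 and 1.56 to 4.66% in the others. The parental and Cre libraries of 53371 held 13.1 and 11.8 M reads, within the range of the rest. The main results are therefore also given without this line. Jak1 itself lay between 125 and 207 CPM in parental and between 104 and 234 in Cre libraries, and its total over all exons does not check a deletion of some of them. Of the 10 ductal markers examined, 7 were under 2 CPM in both libraries of 52419, Krt7, Krt8, Epcam and Cdh1 among them, while Krt18 was at 253 and 188, Sox9 at 171 and 149 and Krt19 at 15.5 and 19.9. In 53369 Epcam was at most 0.612 CPM, while the 10 ductal markers summed to 1779 CPM in parental and 1960 in Cre cells. Over the lines this sum ran from 445 to 13039 CPM in parental and from 360.2 to 13248 in Cre libraries. Leukocyte markers summed to 1.99 to 26.4 CPM in parental and 2.02 to 10.0 in Cre libraries. Endothelial markers summed to 0.612 to 6.85 and 0.627 to 5.32. In 53371 the leukocyte sum was 6.38 CPM in parental and 7.86 in Cre cells, and the endothelial sum 6.85 and 5.32. The 5 mesenchymal markers examined summed to 2839 to 10825 CPM in parental and 2342 to 11171 in Cre libraries, highest in 53369. Vim, 1 of them, was at 2353 and 2608 CPM in 52419. Fibroblast markers summed to 10.1 to 2176 CPM in parental and 10.3 to 1282 in Cre libraries, highest in 53369. The part of any of these markers' cell types or states in the levels of the 44 genes was not tested.

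Promoters of such genes are known for a short element, the cell cycle genes homology region, that MuvB recognises, and for CCAAT boxes, which bind NF-Y. The RefSeq promoter table (GRCm38.p6, 250 bases before to 50 after the start) held 38 windows of 36 of the 44 genes. TTTGAA, the common form of that region, was found on either strand in 29 of the 38, or 76.3%, against 17.9% of all 32851 windows. CCAAT on either strand was in 31, or 81.6%, against 37.4%, and 20 windows held at least 2 of them, 52.6% against 11.7%. Both motifs were in 27 windows, 71.1%, against 6.95% of all windows, with overlaps between motifs allowed. No test is attached to these shares. The 9 windows without TTTGAA belong to Birc5, Bub1, Ccnb1, Cenpe, Mad2l1, Mybl2, Nek2, Nusap1 and Pttg1, and 5 of them, those of Birc5, Mad2l1, Mybl2, Nusap1 and Pttg1, had neither motif in this window. The windows of 4 central members are shown 5′ to 3′ on the strand of the gene, as examples of how the motifs are placed, with TTTGAA and CCAAT, or their reverse complements, in capitals. They are chr13:100786437-100786736 on the minus strand for Ccnb1, chr4:118437294-118437593 on the minus strand for Cdc20, chr7:122159185-122159484 on the plus strand for Plk1 and chr10:69352863-69353162 on the minus strand for Cdk1.
Ccnb1: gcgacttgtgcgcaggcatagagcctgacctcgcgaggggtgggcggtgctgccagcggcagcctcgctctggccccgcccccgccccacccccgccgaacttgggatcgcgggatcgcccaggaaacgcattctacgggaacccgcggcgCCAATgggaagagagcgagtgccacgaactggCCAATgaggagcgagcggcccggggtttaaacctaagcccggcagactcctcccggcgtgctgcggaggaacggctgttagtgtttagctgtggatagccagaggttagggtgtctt
Cdc20: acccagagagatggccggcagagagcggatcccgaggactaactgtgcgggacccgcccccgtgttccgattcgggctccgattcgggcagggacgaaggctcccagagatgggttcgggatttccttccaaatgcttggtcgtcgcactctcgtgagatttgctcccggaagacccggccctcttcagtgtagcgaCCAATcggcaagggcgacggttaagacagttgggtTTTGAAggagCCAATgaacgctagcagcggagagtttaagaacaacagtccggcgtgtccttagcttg
Plk1: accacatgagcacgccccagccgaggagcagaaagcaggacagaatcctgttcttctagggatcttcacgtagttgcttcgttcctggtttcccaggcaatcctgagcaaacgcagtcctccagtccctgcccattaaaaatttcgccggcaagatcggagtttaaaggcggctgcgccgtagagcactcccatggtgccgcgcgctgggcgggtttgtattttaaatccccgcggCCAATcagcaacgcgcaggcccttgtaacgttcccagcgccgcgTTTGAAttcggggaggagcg
Cdk1: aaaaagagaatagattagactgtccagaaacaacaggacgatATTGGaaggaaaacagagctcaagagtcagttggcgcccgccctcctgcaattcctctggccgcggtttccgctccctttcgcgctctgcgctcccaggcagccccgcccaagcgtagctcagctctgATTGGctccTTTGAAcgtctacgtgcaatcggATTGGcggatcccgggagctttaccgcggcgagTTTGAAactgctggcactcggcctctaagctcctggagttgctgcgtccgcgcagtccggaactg
The Ccnb1 window holds a pair of CCAAT boxes and no TTTGAA, whereas that of Cdk1 holds both motifs more than once.

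In Cre against parental cells, 43 of the 44 genes had a fitted log2 change above 0 and Pttg1 was below 0, against 49.9% of all tested genes above 0. The median over the 44 was 0.62 on the log2(CPM + 0.5) scale, where the median over all tested genes was -0.00024. With 1 library per line and condition, a p-value here reflects how far the lines resembled each other in their difference. None passed adjusted p under 0.05 in limma with Benjamini-Hochberg adjustment (0 of 44, against 0.0236% of all genes called), with adjusted p from 0.258 for Incenp, Cdc20 and Ect2 to 0.718 for Pttg1. At an unadjusted p under 0.05, 22 were higher and 0 lower, where 6.96% of all genes were higher. On the recovered reads edgeR and DESeq2 also called 0 of the 44 (0.0393% and 2.12% of all genes were called), with 12 and 24 higher at an unadjusted p under 0.05 (6.09% and 6.13% of all genes). In no gene did the Cre libraries all lie above the parental ones (0 of 44, against 0.0393% of genes).

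Without line 53371 the median was 0.27, 43 of 44 estimates stayed above 0 (51.0% of all genes), and 25 genes passed an unadjusted p under 0.05 in the higher direction, as 4.66% of all genes did. All 22 of the first set were among these 25. None of the 44 was called (0.0157% of all genes were), and the lowest adjusted p was 0.299, for Birc5, by limma with Benjamini-Hochberg adjustment. Other lines also moved the count: it was 8 without 52424 and 35 without 53105, and without both 52424 and 53371 it was 9, with a median of 0.17. The share of all genes was not counted in these settings.

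**Figure D1:**
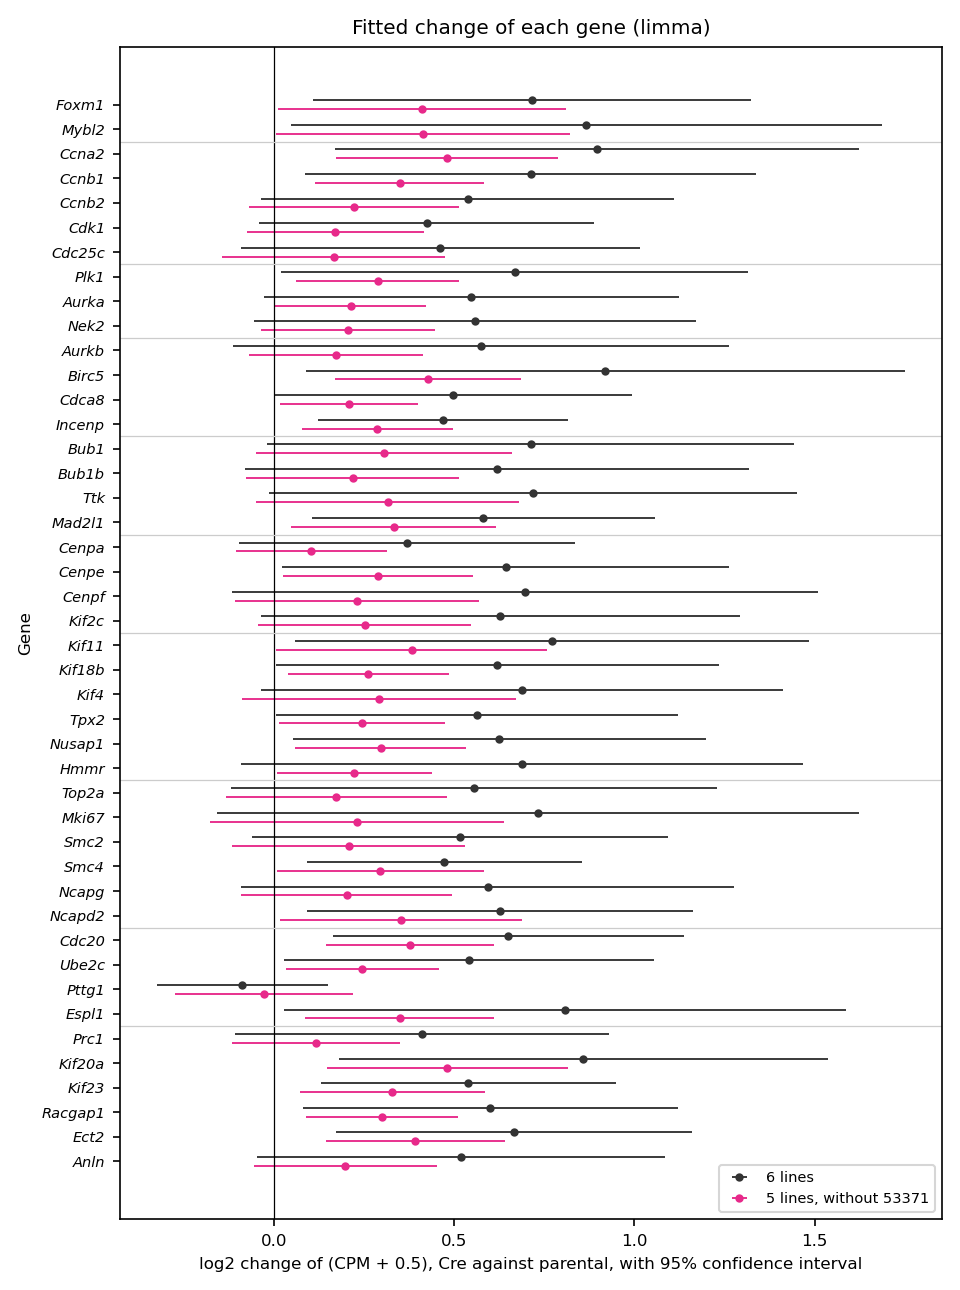
Fitted log2 change of (CPM + 0.5) in Cre against parental cells for each of the 44 genes (points, with 95% confidence intervals from limma), over all 6 lines (dark) and over the 5 lines other than 53371 (pink), with faint lines between roles. Leaving out 53371 moves all 44 estimates towards 0, with the median going from 0.62 to 0.27, and Pttg1 is the gene whose estimates lie below 0.

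The size of the difference depended on the line. In 53371, 43 of 44 genes were more than 1 higher on the log2 scale, against 4.36% of all genes in that line, with a median log2 change of 2.30. In 52424 all 44 were higher (50.3% of all genes), with a median of 0.64, and 6 of them, Foxm1, Ttk, Kif11, Mki67, Ncapd2 and Kif20a, were over 1 (2.45% of all genes). The medians in 52205, 52419 and 53369 were 0.39, 0.28 and 0.12, with 43, 42 and 36 of the 44 genes higher (50.5%, 51.6% and 51.1% of all genes) and none over 1 (0.573%, 0.487% and 0.699% of all genes were). In 53105 the direction was mostly the other way: 28 genes were lower and 16 higher (49.0% of all genes), with a median of -0.08 and a range from -0.49 for Kif4 to 0.23 for Ect2, none over 1 (1.55% of all genes). Over all tested genes the median change lay between -0.03 and 0.01 in every line, and 47.1 to 51.6% of genes were higher. Differences between single lines have no test.

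**Figure D2:**
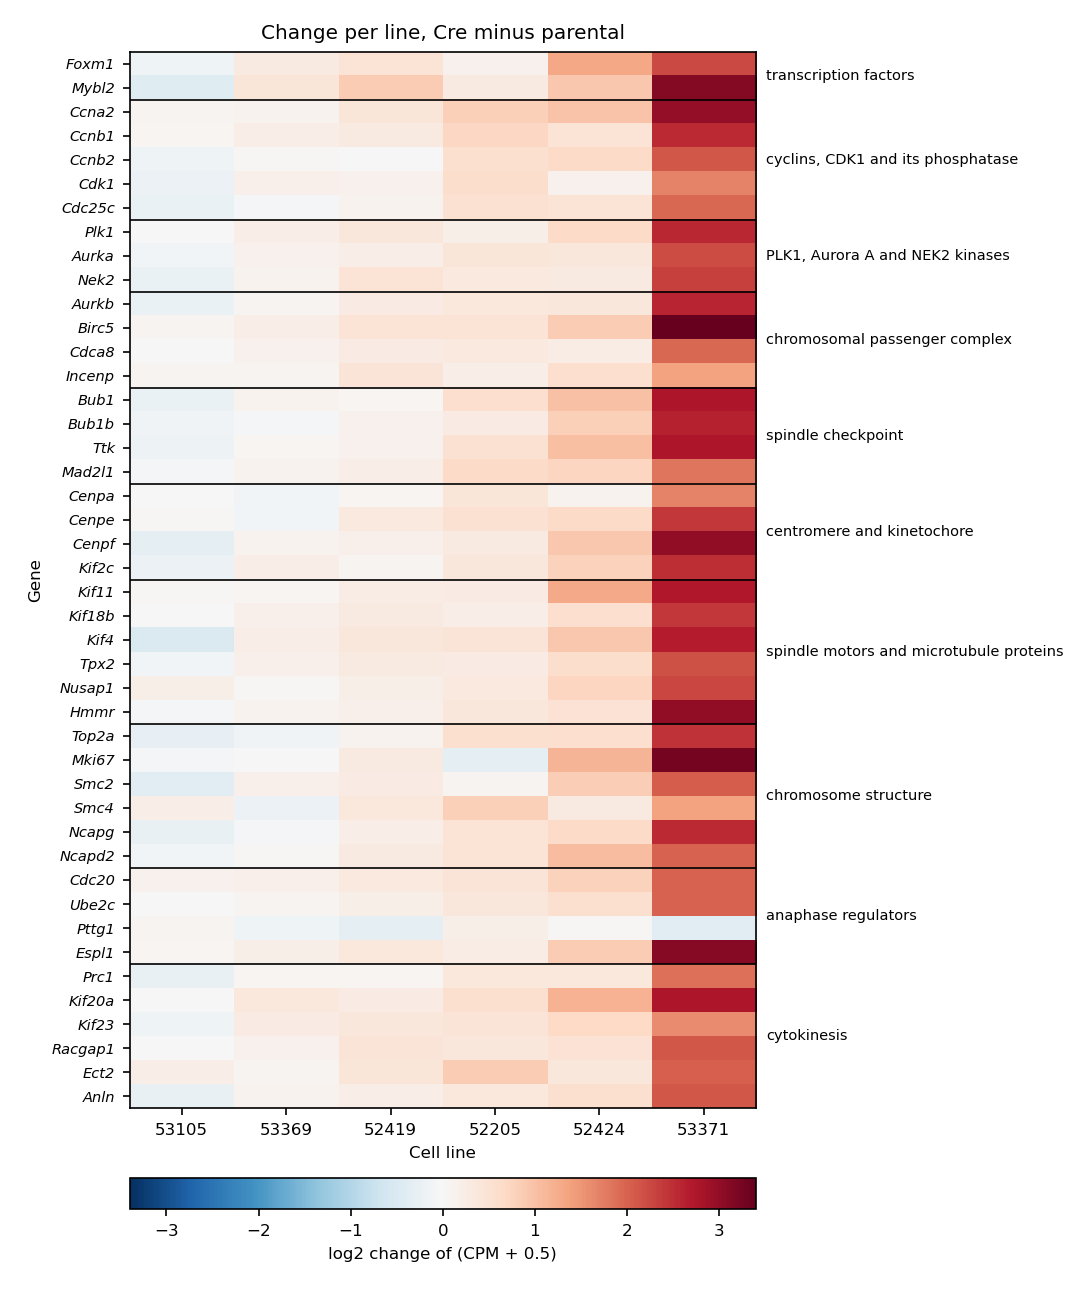
Log2 change of (CPM + 0.5), Cre minus parental, for 44 genes (rows, grouped by role) in 6 lines (columns, ordered by their median). Red is higher and blue lower in Cre cells; the 53371 column is red in every row but Pttg1, with values up to 3.38, and 28 rows are below 0 in 53105.

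Line 53371 stood apart before Cre more than after it. Its parental level was the lowest of all 12 libraries for 43 of the 44 genes, where 11.0% of all tested genes had their lowest value there. It amounted to between 13.1% (Espl1) and 57.8% (Kif23) of the median of the other 5 parental libraries for these 43, with a median of 23.6% over the 44. After Cre the same line was at 66.4% (Smc4) to 122% (Foxm1) of the median of the other 5 Cre libraries, with a median of 105%. It lay inside their range for 43 of the 44, the exception being Ncapd2, which was below it. The share of all genes inside that range was not counted. The summed level of the 44 genes went from 1251 to 5795 CPM in 53371, a ratio of 4.63, where the sums of the other parental libraries were 3301 to 7791 CPM and those of the other Cre libraries 4405 to 9378. At the other end, 52419 had the highest parental level for 37 of the 44 genes (22.1% of all genes). Spread over lines was smaller in Cre cells: the SD of the log2 level had a median of 1.00 over the 44 genes in parental and 0.42 in Cre libraries, and was smaller in Cre for all 44 (51.8% of all genes). Without 53371 the medians were 0.54 and 0.46, and 29 of 44 were smaller in Cre (45.7% of all genes).

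**Figure D3:**
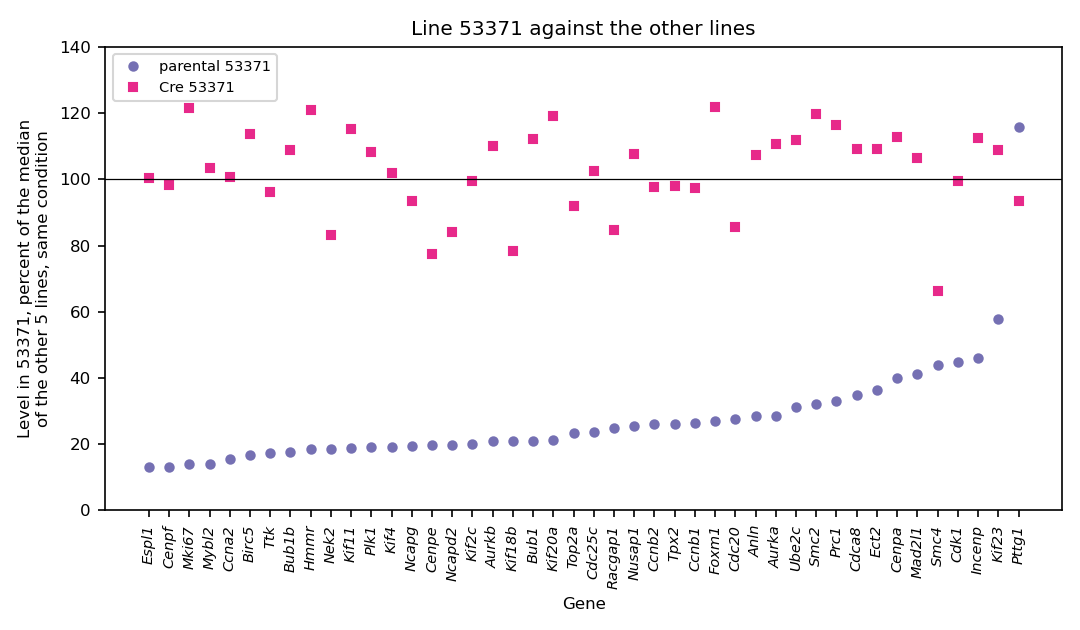
Level of each of the 44 genes in line 53371 as a percentage of the median of the other 5 lines in the same condition (circles parental, squares Cre), ordered by the parental value. Parental values lie from 13.1 to 57.8% except that of Pttg1 (116%), and Cre values lie from 66.4 to 122%.

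Both transcription factors followed this pattern. Foxm1, the forkhead factor of G2/M genes, lay between 35.4 and 247 CPM (median 118) in parental and between 116 and 338 (median 150.3) in Cre libraries. Parental and Cre levels were 35.4 and 169.7 in 53371, 55.8 and 139 in 52424, and 139 and 125 in 53105. The groups overlapped, since 5 of the 6 Cre libraries stayed under the parental level of 52419. Its log2 change was 0.72 (SE 0.27, limma adjusted p = 0.293) and 0.41 without 53371. Mybl2 ranged from 3.31 to 39.6 CPM (median 23.4) in parental and from 20.6 to 71.9 (median 32.3) in Cre cells, and its change of 0.87 (SE 0.37, limma adjusted p = 0.317) became 0.41 without 53371. In 53371 it was 9.91-fold higher in Cre cells, from 42 reads in the parental library.

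Among the genes of CDK1 and its activators, Ccna2 and Ccnb1 were higher in every line, Cdk1 in 5 of 6 and Ccnb2 and Cdc25c in 4. Ccna2, cyclin A2, was between 20.3 and 264 CPM (median 112) in parental and between 138 and 354 (median 163) in Cre libraries, higher in 6 of 6 pairs with a log2 change of 0.90 (SE 0.32, limma adjusted p = 0.286). Ccnb1, cyclin B1, which starts mitosis with CDK1, was between 12.8 and 91.8 CPM (median 42.4) in parental and between 27.0 and 113 (median 77.7) in Cre libraries. It too was higher in 6 of 6 pairs, by 0.71 (SE 0.28, limma adjusted p = 0.295), and by 0.35 without 53371. Cdk1 ranged from 59.6 to 210.3 CPM (median 131) and from 64.7 to 233 (median 194), a change of 0.42 (95% interval -0.04 to 0.89, limma adjusted p = 0.365). The 2 lowest Cdk1 levels before Cre were in 53371 (59.6) and 53105 (74.6), and in 53105 it was also the lowest after Cre. The second B-type cyclin gene Ccnb2 was at 0.54 and Cdc25c, whose phosphatase activates CDK1, at 0.46. Some 12.5% of the exon bases of Ccna2 are shared with Exosc9 on the opposite strand, and the library protocol names no strand-marking step.

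Plk1, a kinase of spindle assembly and mitotic exit, was between 14.7 and 139 CPM (median 73.9) in parental and between 76.1 and 181 (median 85.9) in Cre libraries. All parental libraries but that of 53371 were at 51.1 or more, and 5 Cre libraries fell in a narrow span from 76.1 to 92.4. In 53105 it was nearly level, at 76.6 and 76.1. Its log2 change was 0.67 (SE 0.29, limma adjusted p = 0.322), and 0.29 without 53371. Aurka, the Aurora kinase of centrosomes, ranged from 20.8 to 105 CPM (median 70.1) and from 63.4 to 124 (median 93.0), a change of 0.55. Nek2, a kinase of centrosome separation, was at 0.56 and 0.20 without 53371.

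In the chromosomal passenger complex, which corrects faulty attachments of chromosomes to the spindle, Birc5 and Incenp were higher in 6 of 6 pairs, and Aurkb and Cdca8 in 5. Birc5, survivin, had the highest estimate of the 44 over 6 lines, but not without 53371, where it was 0.43 and those of Kif20a and Ccna2 were 0.48. Its level was 8.66 to 94.3 CPM (median 51.5) in parental and 55.5 to 130.5 (median 87.4) in Cre libraries, with a log2 change of 0.92 (SE 0.37, limma adjusted p = 0.302). In 53371 it went from 8.66 to 94.7 CPM, 10.9-fold, and in the other lines the log2 change was 0.09 to 0.88. Incenp, the scaffold of the complex, was among the 3 genes with the lowest adjusted p although its change was small. Its level was 53.6 to 126 CPM (median 106) in parental and 103 to 171 (median 132) in Cre libraries, and it was higher by 0.47 (SE 0.15, limma adjusted p = 0.258), and by 0.29 without 53371. Aurkb, the kinase of the complex, was between 11.8 and 78.0 CPM (median 54.6) and between 47.9 and 94.7 (median 69.7), with 0.58 (95% interval -0.11 to 1.26). Cdca8, borealin, was at 0.50.

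The 4 spindle checkpoint genes, whose proteins hold anaphase until every kinetochore is attached, were each lower in 53105 (6486 of all 12734 genes). Bub1b, which encodes BUBR1, ranged from 26.5 to 271 CPM (median 137) in parental and from 128 to 302 (median 158) in Cre libraries, a change of 0.62 that became 0.22 without 53371. Mad2l1, the checkpoint protein MAD2, ranged from 23.9 to 107 CPM (median 54.4) and from 55.1 to 125 (median 80.8), with 0.58 (SE 0.21, limma adjusted p = 0.287). Ttk, the kinase MPS1, ranged from 4.88 to 52.99 CPM (median 26.8) and from 24.7 to 59.1 (median 36.1), with 0.72 (SE 0.33, limma adjusted p = 0.335). Mad2l1 and Ttk were higher in 5 of 6 pairs and Bub1b in 4. Bub1 was at 0.71, and at 0.31 without 53371.

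Among centromere and kinetochore genes the smallest estimate was that of Cenpa, the histone H3 variant that marks the centromere. Its level was 24.2 to 126 CPM (median 58.2) in parental and 54.4 to 132 (median 74.6) in Cre libraries, a change of 0.37 (95% interval -0.10 to 0.83, limma adjusted p = 0.426) and 0.10 without 53371. Cenpe, a kinetochore motor, was at 22.7 to 194 CPM (median 113) and 119 to 246 (median 141), with 0.64, and was lower in 53369. Cenpf, a large kinetochore protein, was at 13.0 to 178 CPM (median 96.0) and 101 to 199 (median 110.4). In 53371 Cenpf went from 13.0 to 109 CPM, and its estimate of 0.70 (SE 0.36) became 0.23 without that line. Kif2c, a kinesin that takes microtubules apart at centromeres, was at 0.63.

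Spindle motors and microtubule proteins had 6 of 6 estimates above 0 (49.9% of all genes). At an unadjusted limma p under 0.05, 4 were higher (6.96% of all genes), and none was called after adjustment. Kif11, the motor that pushes the spindle poles apart, was between 17.7 and 102 CPM (median 91.6) in parental and between 92.2 and 122 (median 106) in Cre libraries. Outside 53371 and 52424 (37.8) its parental levels were 89.4 to 102, and its log2 change, 0.77 over 6 lines (SE 0.32, limma adjusted p = 0.309), was 2.71 in 53371 and 1.28 in 52424, against 0.05 to 0.27 in the other lines. Tpx2, which activates Aurora A on the spindle, was between 42.6 and 409 CPM (median 157) and between 140.3 and 503 (median 195), with 0.56. The remaining estimates were 0.62 for the kinesin Kif18b, 0.63 for Nusap1, 0.69 for Hmmr and 0.69 for the chromokinesin Kif4. Kif18b and Nusap1 were higher in 6 of 6 pairs, and Kif4 shares 15.1% of its exon bases with Pdzd11 on the opposite strand.

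Genes of chromosome structure included Mki67, the antigen used to score proliferating cells. Mki67 ranged from 25.8 to 381 CPM (median 174) in parental and from 152 to 467 (median 220) in Cre libraries. Parental and Cre levels were 25.8 and 249 CPM in 53371, 104 and 235 in 52424, but 187 and 152 in 52205, and its estimate of 0.73 had an interval of -0.16 to 1.62 (limma adjusted p = 0.406). Top2a, topoisomerase II alpha, was between 103 and 719 CPM (median 431) and between 403 and 783 (median 594), with 0.56, and was lower in 53105 and 53369. Of the condensin genes, Smc2 was at 33.1 to 138 CPM (median 98.3) and 98.1 to 168 (median 118), with 0.52, and Smc4 at 84.8 to 415 (median 191) and 193 to 463 (median 277), with 0.47 (SE 0.17, limma adjusted p = 0.283). Smc4 had the smallest 53371 fold of the genes that were higher there, 2.58. The non-SMC subunits Ncapg and Ncapd2 were at 0.59 and 0.63.

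**Figure D4:**
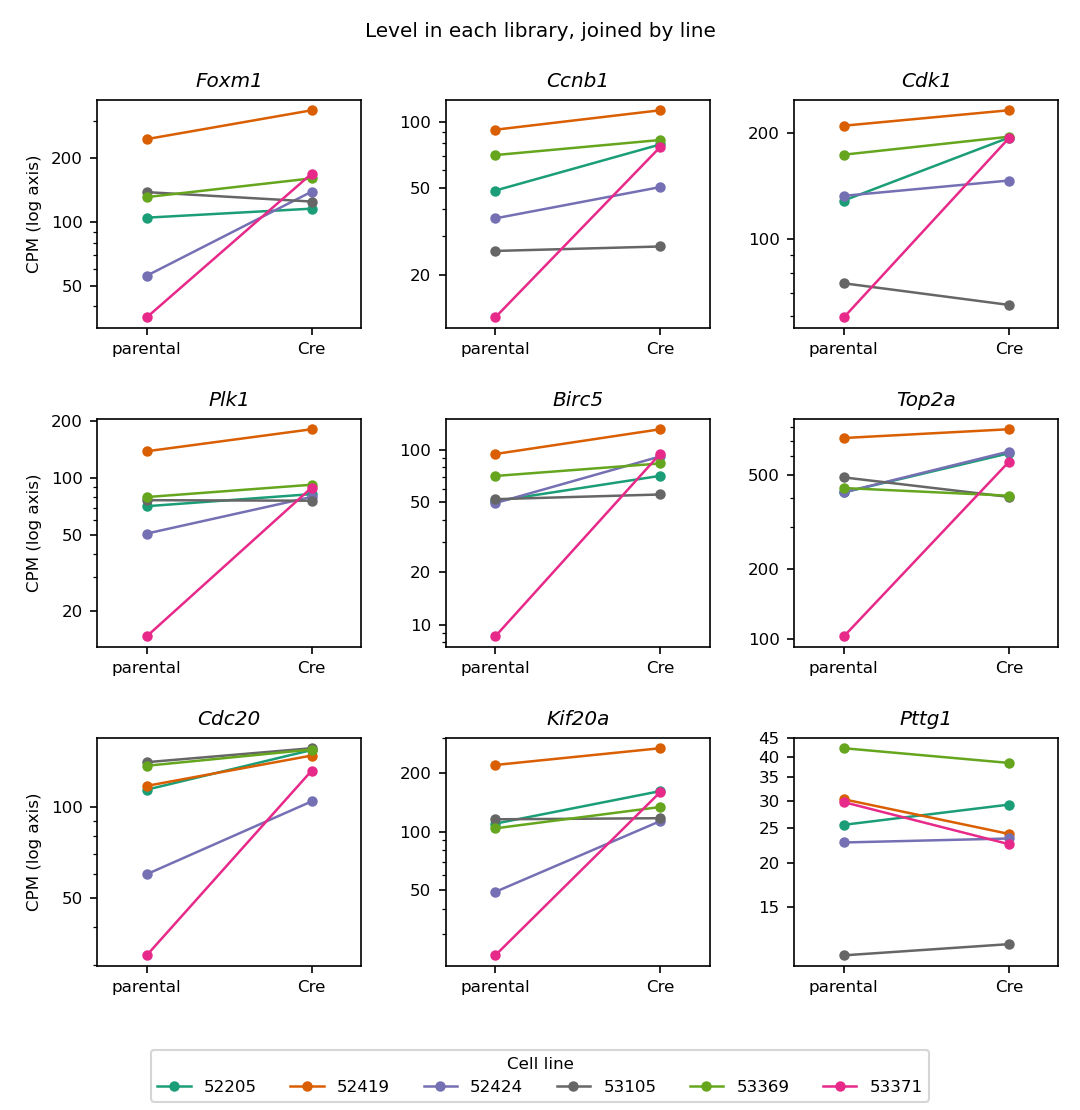
Level (CPM, log axis) of 9 of the genes in each parental and Cre library, joined by line. The pink line, 53371, starts lowest and ends among the others in 8 panels, as for Plk1 (14.7 to 89.3), and goes from 29.7 to 22.6 for Pttg1.

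Of the 4 anaphase regulators, 3 were higher in 6 of 6 pairs (4.11% of all genes) and Pttg1 was the exception. Cdc20, the activator of the anaphase-promoting complex, had the highest mean level per exon length of the 44, 64.6 CPM per kb of exons. It was between 32.3 and 140.2 CPM (median 115) in parental and between 104 and 156 (median 151) in Cre libraries, and 4 Cre libraries lay above the highest parental one. It was higher in 6 of 6 pairs, by 0.15 in 53105 to 2.01 in 53371, with a fitted change of 0.65 (SE 0.22, limma adjusted p = 0.258) and 0.38 without 53371. Ube2c, the ubiquitin-conjugating enzyme of that complex, was between 39.8 and 258 CPM (median 116) and between 106 and 294 (median 154), with 0.54, also higher in 6 of 6 pairs. Espl1, separase, which cuts cohesin at anaphase, was at 8.19 to 101 CPM (median 61.2) and 57.7 to 121 (median 74.0), with 0.81 (SE 0.35, limma adjusted p = 0.321). In 53371 it went from 8.19 to 74.1 CPM, 9.05-fold. Ube2c shares 22.8% of its exon bases with Tnnc2 on the opposite strand.

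Pttg1 encodes securin, the inhibitor that holds separase inactive until anaphase, and its values lay apart from those of the other 43 genes. Its level was 10.9 to 42.2 CPM (median 27.7) in parental and 11.7 to 38.4 (median 23.8) in Cre libraries, and it had at least 192 reads in each. The change was -0.09 (SE 0.11, 95% interval -0.32 to 0.15, limma adjusted p = 0.718), higher in 3 pairs and lower in 3, and -0.03 without 53371. Its parental level in 53371, 29.7 CPM, was 116% of the median of the other lines, and it was 22.6 CPM in the Cre cells. Across the 12 libraries Pttg1 had a Pearson r of 0.0575 with the mean log2 level of the other 43 genes, where the next lowest was Cdk1 at 0.770 and the median was 0.957. Without line 53371 r was 0.379 for Pttg1, 0.521 for Cdc20 as the next lowest and 0.8996 in the median, over libraries that come in pairs of the same line. The difference between Pttg1 and the other genes was not tested.

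Cytokinesis genes, which build the central spindle and the cleavage furrow, were above 0 in 6 of 6 cases (49.9% of all genes). At an unadjusted limma p under 0.05, 4 were higher (6.96% of all genes), and none was called after adjustment. Ect2, the exchange factor that activates RhoA at the furrow, was between 53.9 and 191 CPM (median 147) in parental and between 169.7 and 269 (median 212) in Cre libraries, with 4 Cre libraries above every parental one. It was higher in 6 of 6 pairs, including 53105 (0.23), with a change of 0.67 (SE 0.22, limma adjusted p = 0.258) and 0.39 without 53371. Kif20a, a kinesin of the central spindle, was at 23.3 to 219 CPM (median 107) and 113 to 266 (median 146), with 0.86 (SE 0.30, limma adjusted p = 0.276) and 0.48 without 53371. Kif20a shares 29.3% of its exon bases with Cdc23 on the opposite strand, and how reads there were assigned is not stated. In 53371 Kif20a went from 23.3 to 159 CPM and Cdc23 from 54.3 to 56.9. Racgap1, the partner of the kinesin Kif23 in centralspindlin, was at 40.1 to 231 CPM (median 158) and 143 to 266 (median 190), with 0.60, higher in 6 of 6 pairs. Prc1, which bundles the midzone microtubules, was at 34.4 to 197 CPM (median 104) and 85.7 to 206 (median 119), with 0.41 (95% interval -0.11 to 0.93, limma adjusted p = 0.424). Kif23 was at 0.54 and the furrow protein Anln at 0.52.

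In 13 of the 44 the Cre library was higher in 6 of 6 pairs (4.11% of all genes), which gives an exact sign-flip permutation p of 0.0313, the smallest that 6 pairs allow. The same 13 were those higher in all 5 lines other than 53371 (5.42% of all genes). These 13 were Ccna2, Ccnb1, Birc5, Incenp, Kif11, Kif18b, Nusap1, Cdc20, Ube2c, Espl1, Kif20a, Racgap1 and Ect2. In 23 genes 5 of 6 pairs were higher, in 7 genes 4, and in Pttg1 3. For Plk1, higher in 5 of 6 pairs, the exact sign-flip p was 0.0625, and for Mki67, higher in 4, it was 0.312. Which genes differed most was only partly shared between lines: over the 43 genes without Pttg1, Pearson's r of the log2 changes was 0.56 between 53371 and 52424, 0.49 between 52419 and 53369, and between -0.30 and 0.33 for the other 13 pairs of lines.

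Other genes of the pathway, listed by name and also with earlier results of these data known, are set beside the 44. Of 62 further mitotic genes, 61 had estimates above 0 (49.9% of all genes), with a median of 0.52 and 0.25 without 53371. The exception was Cenpc1 at -0.08, lower in 5 of 6 pairs. In 53371, 60 of the 62 were higher (47.1% of all genes) and 2 lower, Cenpc1 and Zwint. Zwint went from 177 to 137 CPM there, and was higher in 3 pairs and lower in 3, as Pttg1 was. None was called by limma. At an unadjusted p under 0.05, 22 were higher without 53371 (4.66% of all genes). Over all 6 lines 30 passed, all of them higher (6.96% of all genes). The 3 with the smallest p were Pmf1, a kinetochore subunit, at 0.57 (limma adjusted p = 0.140), Gtse1, a microtubule protein of G2, at 0.98 (limma adjusted p = 0.257) and Spc24, of the NDC80 complex, at 0.92 (limma adjusted p = 0.258). Pmf1 and Gtse1 were higher in 6 of 6 pairs, 53105 included. Replication and G1/S genes were above 0 in 33 of 33 cases (49.9% of all genes), with a median of 0.50 and 0.26 without 53371. None was called by limma. At an unadjusted p under 0.05, 17 were higher without 53371 (4.66% of all genes) and 24 over all 6 lines (6.96%). Fen1, the flap endonuclease of lagging-strand synthesis, was at 0.57 (limma adjusted p = 0.208), Mcm2, of the replicative helicase, at 0.60 (limma adjusted p = 0.236) and Gins2, also of the helicase, at 0.44 (limma adjusted p = 0.256).

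The list of the anaphase-promoting complex and cohesin held 25 genes: core subunits and the associated factors Fzr1, Ube2s, Wapl, Pds5a, Pds5b and Nipbl. Its median was 0.05, and 0.15 in 53371 alone, where the highest was 0.80. None was called, and 0 passed an unadjusted p under 0.05 by limma (6.96% of all genes were higher). The 3 with the smallest p were Anapc11 (0.14, limma adjusted p = 0.386), the activator Fzr1 (0.14, limma adjusted p = 0.403) and Anapc15 (0.26, limma adjusted p = 0.438). Among 31 tested RB, E2F and DREAM genes 25 were above 0 (49.9% of all genes), with a median of 0.15. Without 53371, 21 were above 0 (51.0% of all genes), with a median of 0.07. Over all 6 lines 0 were called by limma, with 2 higher at an unadjusted p under 0.05 (6.96% of all genes). E2f7, a repressor that is itself made in S phase, was at 0.62 (limma adjusted p = 0.295), Ccne2, cyclin E2, at 0.74 (limma adjusted p = 0.303) and Ccnd2, cyclin D2, at 0.27 (limma adjusted p = 0.350). Of 19 CDK inhibitors and p53 targets 8 were above 0 (49.9% of all genes) and 11 below, with a median of -0.04. None was called by limma, 6 were lower and 1 higher at an unadjusted p under 0.05 (1042 and 886 of all 12734 genes). Without 53371 the counts were 2 lower and 1 higher (717 and 594 of all 12734 genes), with a median of -0.00145. Over all 6 lines, the 3 with the smallest p were Cdkn1a, the inhibitor p21, Cdkn2b, the inhibitor p15, and the apoptosis gene Bax. Cdkn1a went from 35.4 ± 16.3 to 23.4 ± 10.3 CPM (SD, n = 6), a log2 change of -0.60 (limma adjusted p = 0.209), lower in 6 of 6 pairs. Cdkn2b went from 280.0 ± 112 to 204 ± 61.4 CPM (SD, n = 6), a change of -0.42 (limma adjusted p = 0.242), lower in 6 of 6 pairs, and in 53371 from 467 to 226. Bax was at 0.22 (limma adjusted p = 0.257). Gadd45a, a stress gene named after its values were seen, had rank 5 by p in this list. Its log2 change was -2.22 in 53371, -1.99 in 52424, -0.63 in 53369, -0.21 in 53105, 0.01 in 52205 and 0.23 in 52419. The fitted change was -0.80 (limma adjusted p = 0.299). In 53371, 8 of the 19 genes were higher (47.1% of all genes), up to 1.06 for Plk2, and 11 were lower, with Gadd45a the lowest. Whether these genes have a part in the levels of the mitotic genes was not tested.

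**Figure D5:**
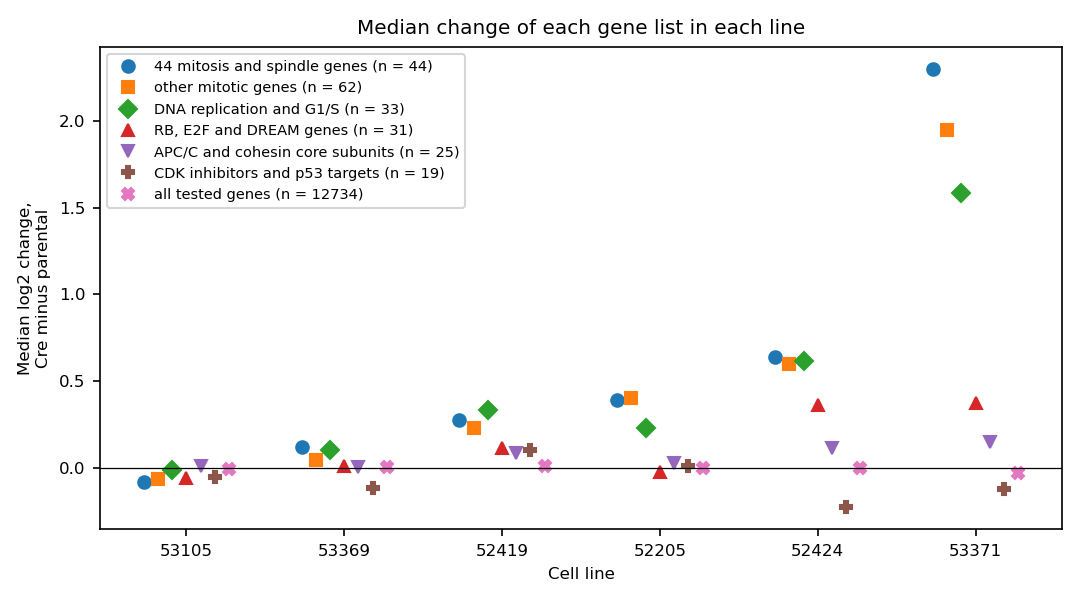
Median log2 change of (CPM + 0.5), Cre minus parental, in each line for the 44 genes, 5 other gene lists and all 12734 tested genes (n, genes in each list). In 53371 the medians are 2.30 for the 44 genes, 1.95 for other mitotic genes and 1.59 for replication genes, and all other medians in any line lie between -0.22 and 0.64.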

How the data were processed

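RNA was sequenced from 12 cultures, 1 parental and 1 Cre library for each of 6 cell lines, which were grouped by their labels. Libraries were made from poly(A) RNA with random hexamers, per the labels' protocols, and no strand-marking step is named there. Per the submitters' processing notes, reads were handled with FastQC 0.11.9, featureCounts and edgeR on GRCm38/mm10. The aligner is not given in the sources used here. Values of the main table, as deposited, are normalized signal per gene on a linear scale and behave as CPM against library sizes scaled by trimmed means (TMM). Recomputing these factors from the recovered reads matched the deposited values to a relative deviation of 6.21e-09. In every library 100.0% of values were whole reads within 0.01, with 1 read worth 0.0569 to 0.0896 CPM. A second table, deposited by the authors, holds log2 values of 10903 genes and served as an alternative. Symbols came from the RefSeq gene table for 19448 of the 20432 Entrez numbers, and 984 were unnamed.

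The main test was limma 3.58.1 (R 4.3.3) with a trend on log2(CPM + 0.5), with the cell line as a block, over 12734 genes at 1 CPM or more in at least 6 libraries, with Benjamini-Hochberg adjustment. Fold changes on this scale understate those of low genes. The lines pair the libraries: deviations from the group means correlated within every pair, from 0.73 to 0.95, and 12 of 12 libraries correlated best with their own line. Alternatives used edgeR 4.0.16 and DESeq2 1.42.0 on the recovered reads, other filters, scalings and weights, no replicate block, and each line left out. Single genes were also given an exact two-sided sign-flip permutation test. The 44 genes, the other lists and the tests were chosen with earlier results of these data known. Genes described by library are a named set of 24 and, in each role, those with the highest and lowest estimate. From each other list the 3 with the smallest p are named, and further genes were added after their values were seen. Overlaps of exons come from GENCODE vM21.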

Additional observations from a re-analysis of the deposited data

Results flagged for a closer look

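For each of the 44 genes the log2 change over the 6 lines, the 6 parental levels and the 6 Cre levels were searched for a single value far from the rest, 132 groups in all. The measure is the gap between the extreme value and its nearest neighbour as a share of the whole range, and a share above 0.625 was marked. Chance marks about 1 in 20 such groups, and genes that move together are marked together. The 44 genes were chosen with earlier results of these data known, and the share of all tested genes marked was not counted. The number of marks is therefore no test of whether a line stands apart, and the marks only describe which values lie far from the rest.

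In 28 of the 44 genes the log2 change of line 53371 lay far above the other 5 lines. The share of the range was 0.693 for Ccna2, 0.746 for Ccnb1, 0.642 for Ccnb2 and 0.651 for Cdc25c. Among kinases and passenger proteins it was 0.749 for Plk1, 0.786 for Aurka, 0.726 for Nek2, 0.776 for Aurkb, 0.761 for Birc5, 0.822 for Cdca8 and 0.635 for Incenp. At the kinetochore and its checkpoint it was 0.655 for Bub1b, 0.713 for Cenpa, 0.705 for Cenpe, 0.630 for Cenpf and 0.638 for Kif2c. On the spindle and chromosomes it was 0.768 for Kif18b, 0.691 for Tpx2, 0.697 for Nusap1, 0.826 for Hmmr, 0.689 for Top2a and 0.679 for Ncapg. For anaphase and cytokinesis it was 0.655 for Cdc20, 0.737 for Ube2c, 0.739 for Espl1, 0.706 for Prc1, 0.765 for Racgap1 and 0.668 for Anln.

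The parental level of 53371 lay far below the other parental libraries for 9 genes: 0.704 of the range for Mybl2, 0.646 for Ccnb2, 0.720 for Aurka, 0.817 for Nek2, 0.678 for Aurkb, 0.727 for Birc5, 0.721 for Kif18b, 0.726 for Top2a and 0.753 for Ect2. Among Cre libraries, 52419 lay far above the others for Foxm1 (0.644), Plk1 (0.777), Cenpf (0.718), Tpx2 (0.702) and Ncapg (0.655), and 53105 far below them for Cdk1 (0.638) and Cdca8 (0.682).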

How the results depend on the processing

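Under all 22 alternatives, 0 of the 44 genes were called, with a lowest adjusted p of 0.0962. Of 968 values of single genes under these alternatives, 967 kept their direction and their side of the threshold. The exception was the Mki67 log2 change, which turned to -0.00325 without lines 52424 and 53371, a setting chosen after seeing the data, and the cause was not tested. The count of 22 genes higher at an unadjusted p under 0.05 was 2 without the replicate block, that is, ignoring the pairing by line. It was 8 with library weights, 12 by limma without a trend, 12 by edgeR (6.09% of all genes) and 9 without 52424 and 53371. Leaving out each line in turn gave 8 (without 52424) to 35 (without 53105). Except for the main fit, edgeR, DESeq2 and the fit without 53371, the share of all genes was not counted. The median change of the 44, 0.62, was 0.39 with library weights, 0.27 to 0.74 when each line was left out, and 0.17 without 52424 and 53371. Every gene had at least 42 reads in every library, and how far depth limits the calls was not tested.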
